A study of Sus scrofa with 10 samples.

Results

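The cells described here are GABAergic cells of the fetal pig brain in which no transcript of DLX1, DLX2, DLX5, DLX6 or LHX6 was counted, called DLX-negative GABAergic cells in the following. They were chosen by their counts of unique molecular identifiers (UMIs, each standing for 1 captured transcript) in 3 libraries, E50_1, E60_1 and E60_2. A cell was a member if GAD1 and GAD2 together had at least 3 UMIs, the DLX genes and LHX6 had 0, CA8 had at most 1 and C1QA and C1QB together had at most 5. The rule found 618 of the 17156 cells in these 3 libraries, out of 28229 cells in the 10 libraries of the series. In E50_1 it took 401 of 5506 cells (7.28%, exact Clopper-Pearson 95% CI 6.61 to 8.001). In E60_1 it took 127 of 8171 cells (1.55%, CI 1.30 to 1.85), and in E60_2 90 of 3479 cells (2.59%, CI 2.09 to 3.17).

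The study profiled whole cells and nuclei dissected as medial entorhinal cortex (MEC) from fetal and adult pigs with the 10X Genomics platform. The fetuses came from Danish Landrace and Yorkshire sows crossed with Duroc boars and were of both sexes, and nothing was treated. E50_1 held papain-dissociated whole cells of 3 pooled brains at embryonic day 50 (E50), and E60_1 and E60_2 each held whole cells of 1 brain at E60. With 1 library at E50 there was no test between E50 and E60, and all tests below compare cell classes over libraries, in which the cells of 1 library were summed and not taken as replicates. The 4 whole cell libraries E60_3 (2 brains), E70_1 (2 brains), E70_2 (1 brain) and E70_3 (1 brain) serve as a contrast, where brains are counted as the sample labels give them.

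GABAergic neurons make the inhibitory transmitter GABA with the enzymes encoded by GAD1 and GAD2 and load it into vesicles with the transporter encoded by SLC32A1. Interneurons of the cerebral cortex arise in the ganglionic eminences of the ventral telencephalon, where DLX transcription factors drive their fate and LHX6 marks those of the medial eminence. GABAergic neurons of the diencephalon, midbrain, cerebellum and hindbrain are born without DLX genes in most places and use other selector genes instead, among them GATA2, GATA3, TAL1, SOX14, LHX1, LHX5 and PAX2.

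The tissue label was checked first, since it bears on every result. NEUROD6, a transcription factor gene of cortical excitatory neurons, had a UMI in 44.9% of all cells of E50_1, but in 1.13% of E60_1 and 0.172% of E60_2, against 14.2 to 27.4% in E60_3, E70_1, E70_2 and E70_3. EMX1, which marks the dorsal telencephalon, had a UMI in 25.0%, 0.257% and 0.374% of the cells of E50_1, E60_1 and E60_2, against 8.92 to 15.7% in those 4 libraries. EN2, which marks the midbrain and anterior hindbrain, went the other way, with 16.7%, 15.9% and 9.11% in the 3 libraries against 0.224 to 0.811% in the other 4. The cortical markers were thus nearly absent from E60_1 and E60_2 and present in E50_1, and EN2 was present in all 3. Other midbrain genes did not set these libraries apart, since PAX7 had a UMI in 9.83%, 1.86% and 17.1% of the cells of E50_1, E60_1 and E60_2 but also in 26.8% of E70_1 and 23.0% of E70_2. OTX2 had one in 5.90%, 3.12% and 14.0%, and in 8.32% of E70_1. Of the cell barcodes, 57 were shared by E50_1 and E60_1, 21 by E50_1 and E60_2 and 43 by E60_1 and E60_2, and 0 of these were shared among the members. The summed UMIs of these libraries ran from 25436752 to 55755512.

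Among all cells that met the GABAergic criteria, the share without DLX or LHX6 transcripts was 91.6% of 438 cells in E50_1 (CI 88.5 to 93.98), 96.9% of 131 cells in E60_1 (CI 92.4 to 99.2) and 97.8% of 92 cells in E60_2 (CI 92.4 to 99.7). The same share was 10.0% of 180 cells in E60_3, 16.4% of 55 in E70_1, 4.41% of 68 in E70_2 and 10.1% of 188 in E70_3. The rule itself fixed these libraries, so the shares are a description and were not tested. The 3 libraries and the 4 others did not overlap, and E60_1 and E60_2 lay apart from E60_3 of the same stage. In the remaining libraries the share was 57.4% of 68 cells in the E70 nuclei, 40.0% of 5 in the adult whole cells and 81.8% of 11 in the adult nuclei (CI 48.2 to 97.7), so the adult nuclei overlapped the 3 libraries within the error.

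**Figure D1:**
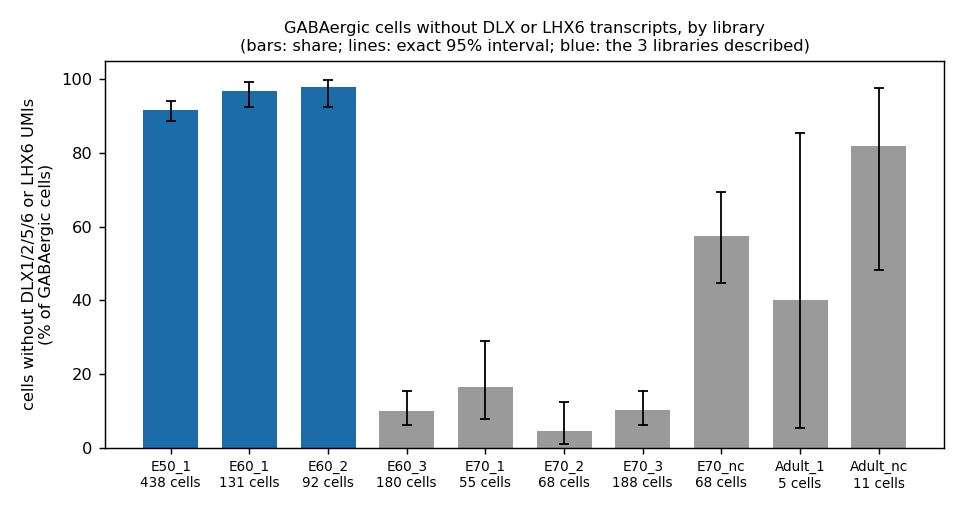
Share of GABAergic cells (y axis, %) without UMIs of DLX1, DLX2, DLX5, DLX6 or LHX6 in each of the 10 libraries (x axis, with the number of GABAergic cells), with exact 95% intervals as lines and the 3 libraries described here in blue. The 3 blue bars lie at 91.6% or above, and the bars of E60_3, E70_1, E70_2 and E70_3 lie at 16.4% or below.

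GAD1, on chromosome 15 of Sscrofa11.1 from 76991863 to 77034819, had a UMI in 347, 98 and 72 of the members of E50_1, E60_1 and E60_2, and GAD2, on chromosome 10 from 49316682 to 49391013, in 386, 122 and 85. Both genes were used by the rule. Members just inside its threshold, with exactly 3 GAD UMIs, numbered 63, 63 and 42, and cells just outside it, with 2, numbered 89, 132 and 79. SOX14 had a UMI in 12.7%, 7.94% and 42.9% of the cells just inside and in 4.49%, 6.82% and 40.5% of those just outside. SLC32A1 had one in 31.7%, 44.4% and 26.2% of the cells just inside and in 22.5%, 34.8% and 21.5% of those just outside.

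As neurons, the members were checked by a list of neuron genes. MAP2, a microtubule protein of neurites, had a UMI in 616 of the 618 cells, and STMN2, a growth cone protein, in 600. Cells with the astrocyte and radial glia list described below and no GAD UMI had MAP2 in 93.6%, 79.5% and 75.8% in E50_1, E60_1 and E60_2. STMN2 was in 63.1%, 19.3% and 15.4% of them. A UMI of MAP2 thus does not by itself tell neurons from glia here. The summed neuron list, which takes 13 genes found in the files, was at 14006, 7392 and 3429 CPM (UMIs scaled to the same total in each library and class) in the members of E50_1, E60_1 and E60_2, against 1940, 662 and 902 CPM in background cells. These background cells had at least 10 UMIs of C1QA and C1QB, which mark microglia, and should lack neuronal transcripts other than free RNA of the droplets. The members' neuron list thus stood above the background in every library, least so in E60_2.

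A second set of genes moved with the members of the E60 libraries. The list of astrocyte and radial glia genes (such as AQP4, a water channel of astrocytes, and VIM, a filament of radial glia) summed to 499.6, 2648 and 2124 CPM in the members of E50_1, E60_1 and E60_2, against 244.8, 1415 and 1347 CPM in the background cells. At least 10 UMIs of this list were found in 38 members of E50_1 (9.48%), 55 of E60_1 (43.3%) and 55 of E60_2 (61.1%), and in 4.76%, 23.4% and 30.9% of the background cells. The list was therefore higher in the members than in the microglia-like background of each library, and most members of E60_2 held it. Globin transcripts summed to 5313, 20967 and 26274 CPM in the members and to 3413, 16496 and 25930 CPM in the background cells. The vascular list summed to 158.5, 150.0 and 704.5 CPM in the members and to 283.9, 179.7 and 269.7 CPM in the background cells, so the members lay above the background in E60_2 and not in E50_1 or E60_1. In SLC17A6 neurons, glutamatergic cells of the same libraries, the neuron list was at 15192, 10514 and 9821 CPM, so the members of E50_1 lay near these and those of E60_2 far under them. The part of the glial, globin and vascular transcripts in the results was not tested, except where values without such cells are given. Scrublet marked 29, 13 and 4 members as possible doublets (7.23%, 10.2% and 4.44%), and they were kept.

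**Figure D2:**
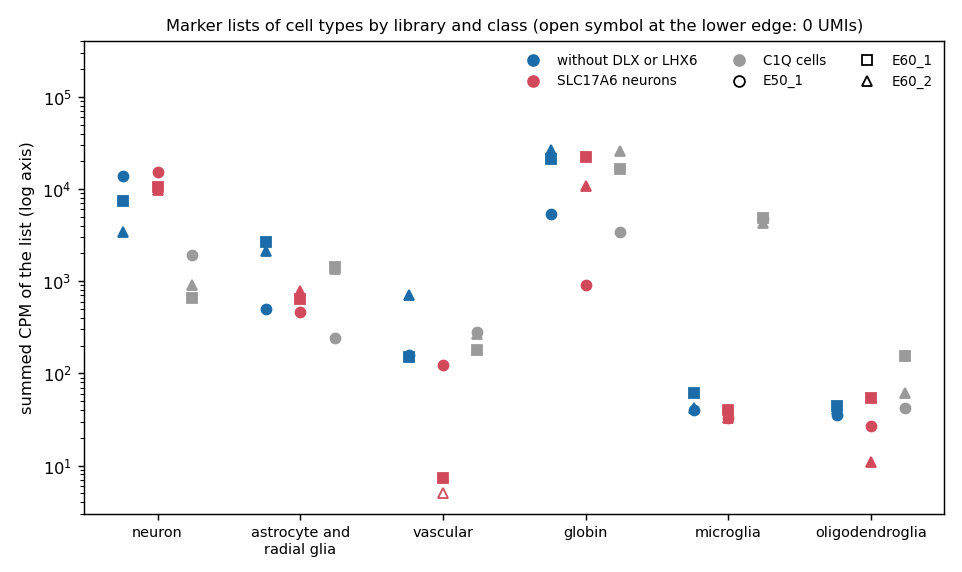
Summed CPM of marker lists (y axis, log scale) for neurons, astrocytes and radial glia, vessels, globins, microglia and oligodendroglia in the DLX-negative GABAergic cells (blue), the SLC17A6 neurons (red) and the microglia-like background cells (grey) of E50_1 (circles), E60_1 (squares) and E60_2 (triangles). The blue points lie near the red ones for the neuron list in E50_1 and above the red ones for the astrocyte and radial glia list in E60_1 and E60_2.

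The 4 marker genes given for these cells include SOX14 and LHX5. SOX14, a SoxB2 transcription factor of GABAergic neurons in the diencephalon and midbrain, lies on chromosome 13 from 78620818 to 78621702. It had a UMI in 94 of 401 members of E50_1 (23.4%, CI 19.4 to 27.9), 15 of 127 of E60_1 (11.8%, CI 6.76 to 18.7) and 41 of 90 of E60_2 (45.6%, CI 35.0 to 56.4). In the background cells the shares were 0.794%, 0.250% and 4.05%. The median depth was 8049, 5427 and 5569 UMIs in the members and 11387.5, 4851 and 5444.5 UMIs in the background cells. SOX14 was thus above background in all 3 libraries, and E60_2 stood highest. Drawn down at random to 4000 UMIs a cell, for which 103 of the 127 members of E60_1 and all members of the other libraries had enough UMIs, the shares were 17.7%, 7.77% and 27.8%, in the same order. As summed levels SOX14 reached 68.3 CPM (exact Poisson 95% CI 60.5 to 76.7), 22.0 CPM (CI 12.8 to 35.2) and 89.7 CPM (CI 69.7 to 114).

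LHX5, a LIM homeodomain factor that lies on chromosome 14 from 38446781 to 38456460, had a UMI in 117 members of E50_1 (29.2%, CI 24.8 to 33.9), 8 of E60_1 (6.30%, CI 2.76 to 12.0) and 6 of E60_2 (6.67%, CI 2.49 to 13.9). In the background cells LHX5 was in 0 of 126 cells of E50_1, which allows up to 2.38%, and in 0.250% and 0.579% of those of E60_1 and E60_2. At 4000 UMIs a cell the members' shares were 15.2%, 3.88% and 4.44%. LHX5 was thus found mostly in E50_1. Its paralog LHX1 (chromosome 12, 38450708 to 38457583) was more often detected, in 170, 29 and 15 members (42.4%, 22.8% and 16.7%) at 97.9, 44.0 and 23.7 CPM, and the background cells had 0.641, 2.91 and 6.96 CPM.

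GATA3 (chromosome 10, 63367684 to 63397977), a zinc finger factor that specifies GABAergic neurons of the midbrain and brain stem, had a UMI in 138, 22 and 31 members (34.4%, 17.3% and 34.4%), at 100.6, 40.1 and 63.3 CPM. The background cells had 3.20, 2.14 and 13.3 CPM of it. GATA2, which acts upstream of GATA3 in the midbrain, had a UMI in 56, 4 and 7 members at 22.7, 6.47 and 15.8 CPM. In the microglia-like background cells GATA2 was at 0, 1.99 and 1.58 CPM, but cells with the astroglial list and no GAD UMI held 14.1, 8.89 and 25.7 CPM, so in E60_1 and E60_2 it was not set apart from these. TAL1 had a UMI in 2 members of E50_1 and TAL2 in 1, and neither had any in E60_1 or E60_2, where 3 UMIs would have made 3.88 and 3.96 CPM. ZFPM2, a cofactor of GATA proteins also called FOG2, was the most widely detected of these, in 301, 108 and 81 members (75.1%, 85.0% and 90.0%) at 773, 904 and 604 CPM, against 37.2, 78.6 and 165 CPM in the background cells.

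PAX2 (chromosome 14, 111822334 to 111914950), which marks inhibitory interneurons of the cerebellum and hindbrain, had a UMI in 119, 18 and 16 members (29.7%, 14.2% and 17.8%) at 79.4, 31.0 and 26.4 CPM. Its background was high, at 16.0, 9.03 and 19.3 CPM and in 15.1%, 4.50% and 10.4% of the microglia-like cells, so E60_2 lay close to it. TFAP2B, an AP-2 factor of the same interneurons, had a UMI in 108, 15 and 15 members at 162, 31.0 and 27.7 CPM, with a background of 1.92, 1.99 and 7.28 CPM. PAX5 was at 80.8, 115 and 13.2 CPM and EN2 at 48.5, 97.0 and 15.8 CPM in the members, with backgrounds of 10.9, 15.1 and 5.70 CPM and of 6.41, 17.1 and 11.7 CPM. PAX5 and EN2, both genes of the midbrain and hindbrain boundary, were thus above background in E50_1 and E60_1 and near it in E60_2.

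OTX2, which marks the forebrain and midbrain, was highest in E60_2, with a UMI in 73, 16 and 34 members (18.2%, 12.6% and 37.8%) at 29.4, 27.2 and 62.0 CPM. The background cells had 1.28, 3.06 and 29.1 CPM of it. PAX7, of the midbrain roof, was in 116, 11 and 34 members (28.9%, 8.66% and 37.8%) at 97.9, 19.4 and 52.8 CPM, against 5.77, 2.29 and 27.9 CPM in the background cells. The shares and the levels of PAX7 put E50_1 and E60_2 in opposite orders, so no order is given. SIX3, a gene of the anterior brain and eye field, was in 68 and 17 members of E50_1 and E60_1 (17.0% and 13.4%) and in 0 of the 90 members of E60_2, which allows up to 3.33%. PAX3, with 67.3 CPM in the members of E60_2 and 62.4 CPM in the background there, could not be told from background in that library.

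**Figure D3:**
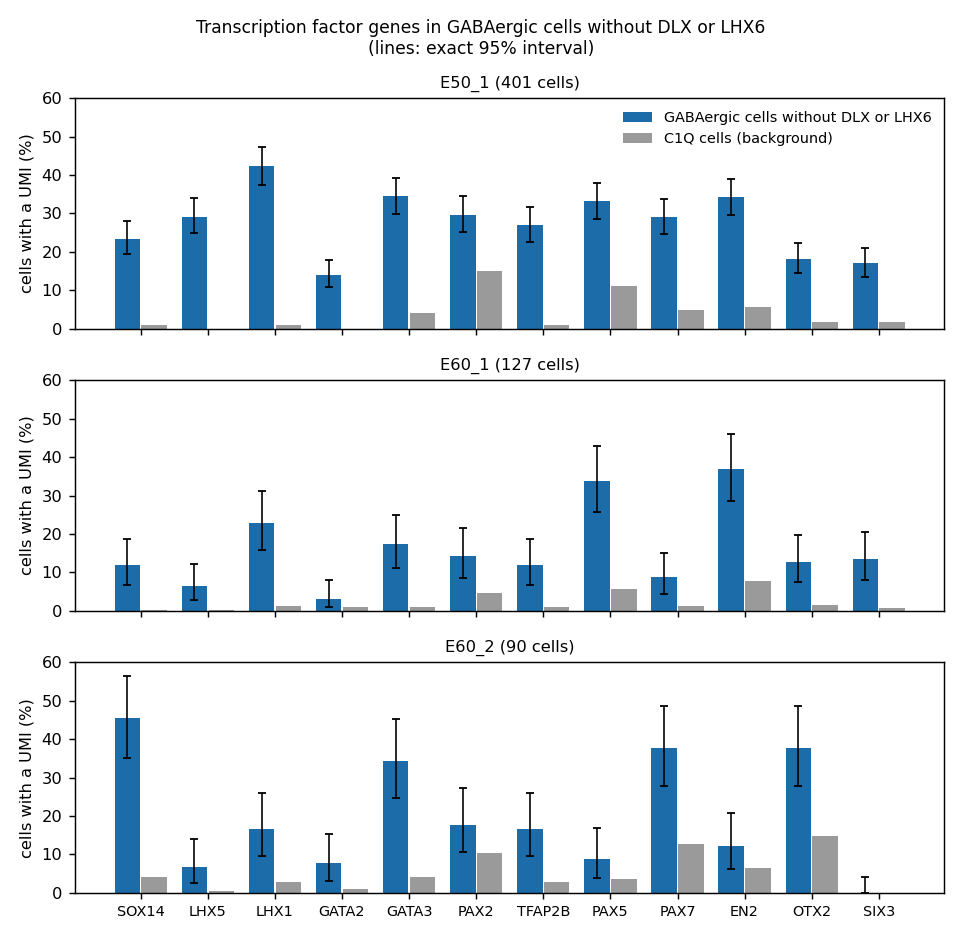
Share of cells with a UMI (y axis, %) of 12 transcription factor genes (x axis) in the DLX-negative GABAergic cells (blue, with exact 95% intervals as lines) and in the microglia-like background cells (grey) of E50_1, E60_1 and E60_2, from top to bottom. SOX14 reaches 45.6% and GATA3 34.4% in E60_2, whereas LHX1 reaches 42.4% in E50_1 and EN2 37.0% in E60_1.

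At least 1 UMI of SOX14, of LHX1 or LHX5, of GATA2, GATA3, TAL1 or TAL2, or of PAX2 was found in 340 members of E50_1 (84.8%, CI 80.9 to 88.2), 71 of E60_1 (55.9%, CI 46.8 to 64.7) and 69 of E60_2 (76.7%, CI 66.6 to 84.9). That is 480 of 618 (77.7%), a share that E50_1 weighs most in and that no single interval describes. In the background cells the shares were 18.3%, 7.34% and 18.0%. Counted as 4 groups, 138 members had none, 231 had 1, 184 had 2, 60 had 3 and 5 had all 4. Thus 40.3% of the members held selectors of more than 1 group, with 49.1% in E50_1, 14.2% in E60_1 and 37.8% in E60_2.

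SP8, SP9, NKX2-1 and LHX8, transcription factor genes of the ventral telencephalon that the rule did not use, had 0 UMIs in the 618 members, which allows up to 0.485%. Other transmitters were rare too, with SLC17A6, the vesicular transporter of glutamate, in 25, 1 and 2 members and SLC17A7, its paralog of cortical neurons, in 5, 2 and 1. NEUROD6 had a UMI in 125 members of E50_1 at 77.9 CPM, where the background was at 44.2 CPM, and in 7 and 1 members of E60_1 and E60_2. POU4F1 and PTF1A had 0 UMIs in the 618 members as well, and HOXA3 and HOXB2, of the hindbrain behind the cerebellum, had UMIs in 10 and 6 members of E50_1 and in none of the E60 libraries.

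The machinery of GABA followed the GAD genes. SLC32A1 (chromosome 17, 41689479 to 41694560) had a UMI in 225, 46 and 24 members (56.1%, 36.2% and 26.7%) at 132, 95.7 and 36.9 CPM, against 1.92, 2.45 and 2.85 CPM in the background. ABAT, which breaks GABA down, was found in 401 members over the 3 libraries. SLC6A5, the transporter of glycine, the other inhibitory transmitter of brain stem and spinal cord, was in 60 members of E50_1 (14.96%), 5 of E60_1 (3.94%) and 0 of the 90 of E60_2, which allows a share of up to 3.33%.

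Neuropeptide genes differed strongly between the libraries. SST was at 686, 367 and 177 CPM and PENK, the enkephalin precursor, at 430, 349 and 31.7 CPM in the members of E50_1, E60_1 and E60_2, against 12.2, 11.8 and 62.7 CPM and 16.7, 5.66 and 5.07 CPM in the background. TRH reached 35.7, 156 and 1.32 CPM, against 0.641, 1.68 and 0 CPM in the background, and its level in E60_2 was 1 UMI. TAC1 reached 49.0, 123 and 6.60 CPM, against 1.92, 5.20 and 19.0 CPM, so E60_2 lay under the background. NPY reached 197, 378 and 21.1 CPM, against 8.33, 14.5 and 2.53 CPM. Cells with the astroglial list and no GAD UMI held NPY at 104.8, 38.7 and 2.31 CPM, and in E50_1 31.1% of them had a UMI of it against 21.2% of the members. PNOC, the precursor of nociceptin, was in 172, 23 and 12 members (42.9%, 18.1% and 13.3%) at 170, 58.2 and 19.8 CPM. The members of E60_2 had the lowest level of each of these 6 genes, and TRH, TAC1 and NPY were highest in E60_1. PVALB had a UMI in 8 members and VIP in 5, all in E50_1.

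Glutamatergic neurons of the same libraries gave the closest comparison within a library. SLC17A6 neurons had at least 3 UMIs of SLC17A6 and none of GAD1, GAD2, the DLX genes or LHX6, met the same CA8 and C1Q limits, and numbered 231, 34 and 12. Of 9221 genes tested, 23 (0.249%) passed an adjusted p of 0.05, of which 13 (0.141%) were higher in the DLX-negative GABAergic cells and 10 (0.108%) were lower. GAD1 and GAD2 among the higher genes and SLC17A6 among the lower ones were set by the choice of cells, which leaves 11 higher genes. The count was 702 without E50_1 and 41 without E60_2.

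SLC32A1 was at 132, 95.7 and 36.9 CPM in the members against 1.71, 0 and 0 CPM in the SLC17A6 neurons, a log2 fold change of 6.30 ± 0.58 (SE, 3 libraries, adjusted p = 0.00163, edgeR's quasi-likelihood test with Benjamini-Hochberg adjustment, as for all adjusted p-values below). PENK was at 430, 349 and 31.7 CPM against 22.7, 10.9 and 0 CPM (log2 fold change 4.38 ± 0.41, edgeR adjusted p = 0.00163). GATA3 was at 100.6, 40.1 and 63.3 CPM against 3.00, 0 and 0 CPM (5.13 ± 0.56 on the log2 scale, edgeR adjusted p = 0.00477). In each library the members had the higher value for these genes, which the naming by p required. The SLC17A6 neurons of E60_2 were 12 cells with 92559 UMIs in all. A count of 0 there leaves room for levels near those of SLC32A1 and PENK in the members. E60_2 alone thus does not set either of these genes apart. SOX14 was at 68.3, 22.0 and 89.7 CPM against 1.28, 3.64 and 0 CPM (5.17 ± 0.68, edgeR adjusted p = 0.0148), and ZFPM2 at 773, 904 and 604 CPM against 61.2, 25.5 and 130 CPM (3.59 ± 0.47, edgeR adjusted p = 0.0148). NRXN3, a neurexin of the presynaptic membrane, was at 409, 263 and 244 CPM against 24.8, 40.0 and 10.8 CPM (3.53 ± 0.41, edgeR adjusted p = 0.00774). These 6 genes kept their call under every alternative that had the library as a term. TRH, ASIC4, MCC, NXPH1 and PAX3 were also higher, by 2.06 to 4.17 on the log2 scale, and the call of NXPH1 was lost without E60_1 (edgeR adjusted p = 0.102) and that of MCC with at least 5 GAD UMIs (edgeR adjusted p = 0.0664).

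NRN1, which encodes neuritin, was at 15.4, 22.0 and 7.92 CPM in the members against 261, 542 and 389 CPM in the SLC17A6 neurons (log2 fold change -4.68 ± 0.37, edgeR adjusted p = 0.00163). CCK, the neuropeptide cholecystokinin, was at 9.65, 40.1 and 5.28 CPM against 90.7, 477 and 173 CPM (-3.77 ± 0.37, edgeR adjusted p = 0.00238). LHX9, a LIM homeodomain factor of glutamatergic neurons in the midbrain and thalamus, was at 22.9, 0 and 3.96 CPM against 432, 58.3 and 86.4 CPM (-4.59 ± 0.49, edgeR adjusted p = 0.00448). LHX2, TFAP2D and PRPH fell by 4.09, 3.72 and 4.11 on the log2 scale. Over the 3 libraries the members and the SLC17A6 neurons did not overlap in NRN1, CCK, LHX9, LHX2 and PRPH. TFAP2D was lower in the members of each library, but its highest member value (33.3 CPM) lay above its lowest value in the SLC17A6 neurons (21.8 CPM).

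Of the 53 selector and regional factors on the list, 18 were tested, and 4 (GATA3, ZFPM2, SOX14 and PAX3) rose while 0 fell. The median log2 fold change of the 18 was 1.11, against 0.03 over all genes tested. A gene could pass the filter on low counts through 1 class alone, and the lists were chosen with earlier results of these data known. Counts and medians of the lists, here and in the comparisons below, are therefore a description. LHX1 (2.71, edgeR adjusted p = 0.0755) and PAX2 (2.46, edgeR adjusted p = 0.188) missed the threshold although both were higher in all 3 libraries. LHX1 passed without E60_2 (edgeR adjusted p = 0.0339), without possible doublets (0.0426), with no filter on low counts and without vascular cells, and PAX2 passed under the last 2 of these settings. EN2 was at 48.5, 97.0 and 15.8 CPM in the members and 36.8, 58.3 and 32.4 CPM in the SLC17A6 neurons (0.26, edgeR adjusted p = 0.980), so EN2 was found in both. Of 12 tested neuropeptide and calcium-binding genes, PENK and TRH rose and CCK fell. Of 27 tested receptor subunits for GABA, glycine and glutamate, 0 passed by edgeR and 0 by DESeq2, and 1 had an unadjusted p under 0.05 by edgeR. Of 13 tested neuron genes 0 passed by either tool, and 3, all lower, had an unadjusted p under 0.05. In a simulation of this comparison 18% of genes changed by 2-fold and 93% of genes changed by 4-fold were found, so smaller differences would mostly have been missed.

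A second GABAergic class in the same libraries was set apart by CA8, a gene of Purkinje cells, the GABAergic projection neurons of the cerebellum. These CA8 cells had at least 2 UMIs of CA8 and numbered 103, 10 and 1, so that E50_1 and E60_1 could be compared. Of 10645 genes tested, 190 (1.78%) passed, 94 (0.883%) higher and 96 (0.902%) lower in the DLX-negative GABAergic cells. With DESeq2 the count was 19, and the calls of SST, PENK, TFAP2B, TAC1, ZFPM2, CALB1, EBF1, ITPR1, FOXP2 and RORA were among those kept. The calls of PAX2 (DESeq2 adjusted p = 0.911), NPY (0.315), GRIA4 (0.262), SOX14, GATA3, LHX1, CALB2, TRH and NEUROD6 were lost with it.

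SST was at 686 and 367 CPM in the members of E50_1 and E60_1 against 81.9 and 49.4 CPM in the CA8 cells (log2 fold change 3.04 ± 0.28, edgeR adjusted p = 5.99e-08). PENK was at 430 and 349 CPM against 86.7 and 12.4 CPM (2.61 ± 0.32, edgeR adjusted p = 1.06e-05). PAX2 was at 79.4 and 31.0 CPM against 14.4 and 0 CPM (2.51 ± 0.44, edgeR adjusted p = 0.00157). The members thus had the higher value of both peptides and of PAX2 in each library, which the naming by p required for SST and PENK. SOX14 was at 68.3 and 22.0 CPM against 14.4 and 0 CPM (2.29 ± 0.45, edgeR adjusted p = 0.00514), and GATA3 at 100.6 and 40.1 CPM against 25.7 and 12.4 CPM (1.95 ± 0.39, edgeR adjusted p = 0.00539). The CA8 cells of E60_1 held 80894 UMIs in all, so values of 0 and 12.4 CPM there rest on few or no UMIs. PAX2, SOX14 and GATA3 are therefore not set apart by E60_1 alone. TFAP2B had 1 UMI in all CA8 cells of E50_1 and E60_1, where the members reached 162 and 31.0 CPM (edgeR adjusted p = 5.99e-08, with no fold given for so few UMIs).

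Several of the genes lower in the members were on the Purkinje list. CALB1, which encodes calbindin, was at 15.7 and 11.6 CPM in the members against 844 and 1446 CPM in the CA8 cells (log2 fold change -6.12 ± 0.28, edgeR adjusted p = 8.51e-14). EBF1, which is on the list of selector and regional factors and not on the Purkinje list, was at 117 and 134 CPM against 1228 and 717 CPM (-2.97 ± 0.24, edgeR adjusted p = 2.09e-08). ITPR1, the calcium channel of the endoplasmic reticulum, was at 19.3 and 29.7 CPM against 469 and 223 CPM (-4.05 ± 0.35, edgeR adjusted p = 3.64e-08). FOXP2 and RORA fell by 3.86 and 3.02 on the log2 scale. The 2 classes did not overlap in these 5 genes. LHX1 was lower in the members, at 97.9 and 44.0 CPM against 217 and 124 CPM (-1.22 ± 0.29, edgeR adjusted p = 0.0206). SLC32A1, at 132 and 95.7 CPM against 112 and 61.8 CPM, missed the threshold (0.32 ± 0.30, edgeR adjusted p = 0.979).

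By lists, 10 of 20 tested selector and regional factors were higher in the members and 2, EBF1 and LHX1, were lower, with a median log2 fold change of 1.56 against 0.02 over all genes. Here too a gene could enter through 1 class alone, so the list counts and medians are a description. Of 14 tested neuropeptide and calcium-binding genes, 8 rose (SST, PENK, NTS, TAC1, NPY, CALB2, TRH and CRHBP) and CALB1 fell. Of 26 tested receptor subunits, 6 rose (GRIA4, GRIK3, GABRB2, GRIK2, GRIN2B and GABRA2) and 0 fell. Within the Purkinje list 6 of 8 tested genes were lower (CALB1, ITPR1, FOXP2, RORA, EBF2 and LHX1) and PCP4 was higher. Lower genes outside that list included NDNF, NGFR, KITLG, DGKH and IGF1. With DESeq2, 2 selectors were higher and 1 lower, 3 neuropeptide genes were higher and 1 lower, 0 receptor subunits passed (12 had an unadjusted p under 0.05 by edgeR) and 4 genes of the Purkinje list were lower. NEUROD6, of cortical excitatory cells, was also higher in the members, at 77.9 and 10.3 CPM against 24.9 and 0 CPM (1.67 ± 0.41, edgeR adjusted p = 0.0289), a call also lost with DESeq2 size factors (edgeR adjusted p = 0.0655), and its part in the other differences was not tested.

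**Figure D4:**
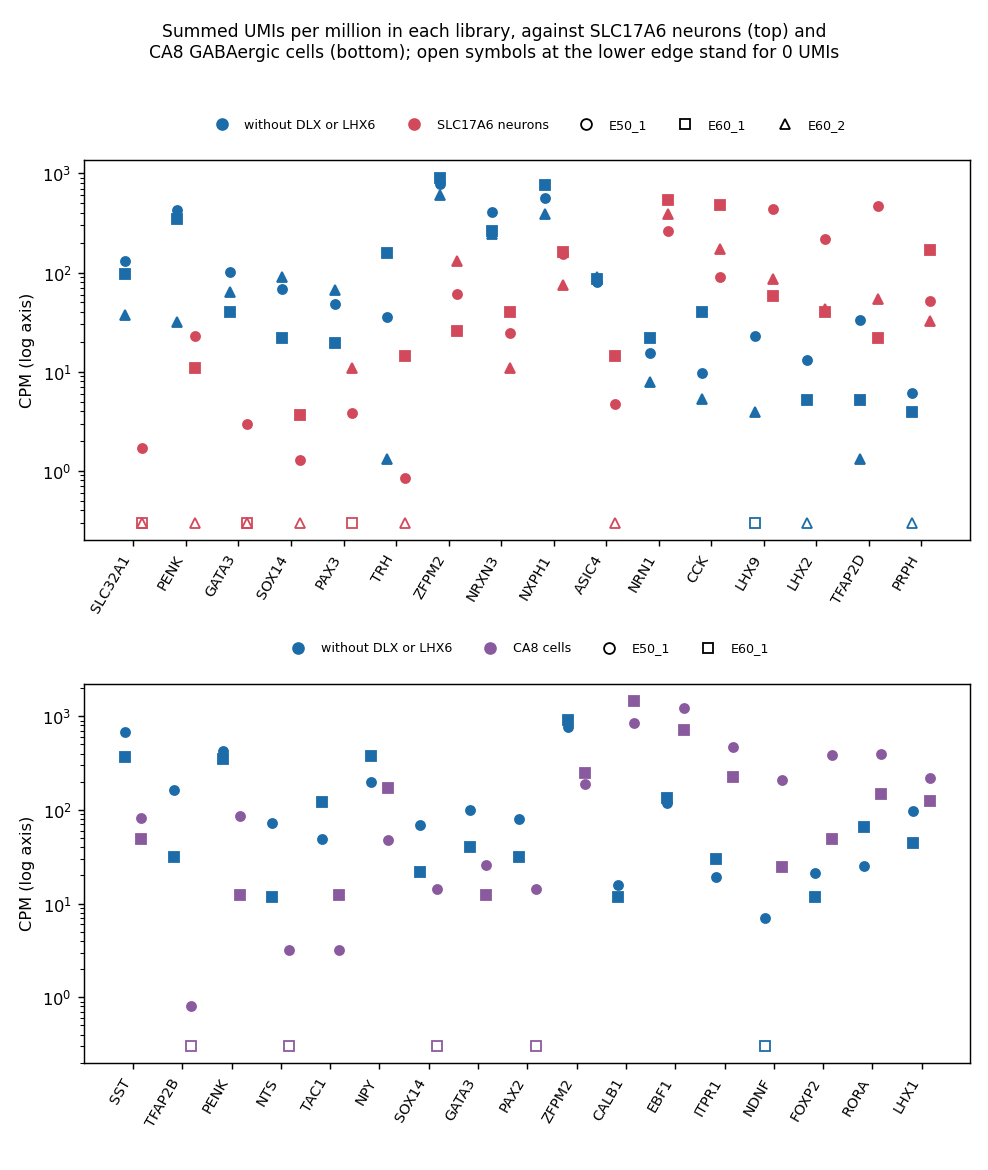
Summed CPM (y axes, log scale) of named genes (x axes) in the DLX-negative GABAergic cells (blue) beside the SLC17A6 neurons (red, top panel) and the CA8 cells (purple, bottom panel), with a symbol for each library and open symbols at the lower edge for 0 UMIs. SLC32A1, GATA3 and SOX14 lie higher in the members and NRN1, CCK and LHX9 lower in the top panel, and CALB1, ITPR1 and FOXP2 lie lower in the members in the bottom panel.

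GABAergic cells with DLX or LHX6 transcripts were few in the same libraries, with 37, 4 and 2 cells, so only E50_1 gave values side by side and no test. SOX14 had a UMI in 2 of the 37 cells (5.41%) and in 23.4% of the 401 members, and GATA3 in 4 (10.8%) and 34.4%. ERBB4, a neuregulin receptor of migrating cortical interneurons, stood at 1478 CPM in the 37 cells and at 208 CPM in the members of E50_1. SLC32A1 stood at 62.8 and 132 CPM, and SST at 471 and 686 CPM. The 37 cells thus held more of ERBB4 and had SOX14 and GATA3 less often, although 9 of them (24.3%) had a UMI of EN2.

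A test was possible against the 442 GABAergic cells with DLX or LHX6 of E60_3, E70_1, E70_2 and E70_3, that is, between sets of libraries that also differ in stage, brain and dissection. Class and library set cannot be told apart in it. Of 10034 genes tested, 1955 (19.5%) passed, with 1105 (11.0%) higher and 850 (8.47%) lower in the DLX-negative GABAergic cells. Between the microglia-like cells of the same library sets, 1112 of 11634 genes (9.56%) passed, 619 higher (5.32%) and 493 lower (4.24%) in the libraries of the members. The count of 1955 fell to 303 without E60_1, to 1261 without E50_1, to 1191 without E60_2, to 914 without E70_1 and to 979 without E70_2.

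ERBB4 was at 208, 252 and 145 CPM in the members of E50_1, E60_1 and E60_2 and at 3177, 2158, 3029 and 3473 CPM in the DLX or LHX6 cells of E60_3, E70_1, E70_2 and E70_3 (log2 fold change -3.82 ± 0.33, 3 against 4 libraries, edgeR adjusted p = 0.00145), and it differed by -1.76 ± 0.58 between the microglia-like cells of these libraries (edgeR adjusted p = 0.0803). MAF, a factor of interneurons from the medial eminence, was at 16.9, 11.6 and 15.8 CPM against 142, 89.6, 176 and 175 CPM (-3.22 ± 0.35, edgeR adjusted p = 0.00411), with a difference of 0.13 in the microglia-like cells. These genes did not overlap between the sets, which the naming by p required. Of 13 tested telencephalic interneuron genes, 8 were lower (among them ERBB4, MAF, ZEB2, PROX1, NXPH1, CXCR4 and SOX6) and 0 were higher (0 by DESeq2 and 0 at an unadjusted p under 0.05), with a median log2 fold change of -1.55 against 0.05 over all genes.

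ZFPM2 was at 773, 904 and 604 CPM in the members against 131, 165, 147 and 78.2 CPM (2.59 ± 0.31, edgeR adjusted p = 0.00509), and differed by 0.63 in the microglia-like cells (edgeR adjusted p = 0.475). PENK was at 430, 349 and 31.7 CPM against 5.67, 6.52, 4.84 and 6.59 CPM (5.53 ± 0.76, edgeR adjusted p = 0.00637). SLC32A1 was at 132, 95.7 and 36.9 CPM against 25.8, 9.77, 4.84 and 23.9 CPM (2.44 ± 0.52, edgeR adjusted p = 0.0165), a call lost without E50_1 (edgeR adjusted p = 0.061), without E60_1 (0.0649) and with at least 5 GAD UMIs (0.0638). Each library of the members lay above each of the others for these genes, which the naming by p required for ZFPM2. SOX14 had 0 UMIs in the 442 DLX or LHX6 cells, which allows a share of up to 0.679%. Of 18 tested selector and regional factors, 7 were higher (ZFPM2, EN2, PAX3, TFAP2B, SOX14, EBF1 and OTX2) and LMX1A was lower, with a median log2 fold change of 1.74 against 0.05 over all genes. SOX14 entered this test through the members alone, so the count and the median are a description. Some genes moved with the libraries, since EN2 rose in the microglia-like cells too (log2 fold change 3.73 ± 0.81, edgeR adjusted p = 0.0308), as did PFKL, GPX1 and LY6E, and KCNAB1, TMEM132D, NELL1 and RASGRF2 fell there. PAX2 was at 79.4, 31.0 and 26.4 CPM in the members against 53.0, 394, 329 and 82.4 CPM, and did not pass (-2.16 ± 0.76, edgeR adjusted p = 0.0709). It did with DESeq2 (DESeq2 adjusted p = 0.00988), without E60_3 (edgeR adjusted p = 0.0267) and without E70_3. SST (0.78, edgeR adjusted p = 0.706) did not pass in the main fit either. Between the microglia-like cells PAX2 passed as lower in the libraries of the members, so PAX2 moved with the libraries too.

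Next, the members were compared among themselves. Each selector was used to split them within a library, by at least 1 UMI or none, and the summed UMIs of both sides were tested with the library as a term. The selector that made the split is not read as a finding.

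In E50_1, 59 of the 94 members with SOX14 also had GATA3 (62.8%, CI 52.2 to 72.5), against 25.7% of the other members. OTX2 was found in 36.2% against 12.7%, PAX2 in 10.6% against 35.5%, TFAP2B in 8.51% against 32.6% and SLC6A5 in 1.06% against 19.2%. The median depth was 7247.5 UMIs in the members with SOX14 and 8271 in the others, and GATA3 and OTX2 were thus the more frequent in the shallower cells. In E60_2, 46.3% of the 41 members with SOX14 had GATA3 (CI 30.7 to 62.6) against 24.5%, and PAX2 was in 17.1% and 18.4%. In E60_1 GATA3 was in 33.3% of 15 cells (CI 11.8 to 61.6) against 15.2%, a share within that interval. GATA3 thus had the higher share beside SOX14 in each library, while the gap in PAX2 was seen in E50_1 and not in E60_2.

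In the test, 20 of 8390 genes (0.238%) passed, 10 in each direction (0.119% each). GATA3 was at 214, 91.0 and 89.2 CPM in the members with SOX14 of E50_1, E60_1 and E60_2 against 67.0, 32.6 and 38.7 CPM without (log2 fold change 1.59 ± 0.21, edgeR adjusted p = 0.00103), and this call was lost without E50_1 (edgeR adjusted p = 0.114) and with DESeq2. CADPS2, a protein of dense core vesicle release, was at 312, 475 and 122 CPM against 99.5, 200.2 and 72.2 CPM (1.38 ± 0.18, edgeR adjusted p = 0.00103). PENK was at 63.1, 121 and 24.3 CPM against 539, 383 and 38.7 CPM (-2.44 ± 0.30, edgeR adjusted p = 0.000674). CADPS2 and PENK kept their calls under each of 11 alternatives with the library as a term. MEGF11 (-2.06), NEUROD1 (-2.36), PAX2 (-2.42) and ERBB4 (-0.97) were lower too, each lost under 1 or more alternatives, and the count was 33 to 63 when a library was left out (33 without E50_1, 61 without E60_1 and 63 without E60_2). OTX2, at 68.4, 50.6 and 75.7 CPM against 17.8, 23.7 and 49.0 CPM, missed the threshold (1.45 ± 0.31, edgeR adjusted p = 0.0678). OTX2 passed under 6 of 11 alternatives, namely with no filter on low counts, without E60_1 (edgeR adjusted p = 0.00409), without E60_2 (0.00331) and without astroglial, globin-rich or vascular cells.

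The 119 members of E50_1 with PAX2 were a different set. TFAP2B was in 54.6% of them against 15.2% of the other members, TFAP2A in 25.2% against 6.38%, SLC6A5 in 42.0% (CI 33.0 to 51.4) against 3.55% and ZIC1 in 16.8% against 4.61%. GATA3 was in 13.4% against 43.3%, SIX3 in 5.88% against 21.6% and PNOC in 26.9% against 49.6%. The median depth was 8198 and 7919.5 UMIs. Seen from the other side, 50 of the 60 members of E50_1 with the glycine transporter SLC6A5 had PAX2 (83.3%, CI 71.5 to 91.7) and 46 had TFAP2B (76.7%), against 20.2% and 18.2% of the members without it. In E60_1, 38.9% of the 18 members with PAX2 had TFAP2B against 7.34%, and 16.7% had SLC6A5 against 1.83%. These shares rest on few cells, and the median depth there was 6946 UMIs with PAX2 and 5338 without. In E60_1, SLC6A5 was in 5 members with the astroglial list and 0 without it, and TFAP2B in 11 and 4.

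The test of PAX2 found 16 of 8655 genes (0.185%), 8 in each direction (0.0924% each), and 51 without E60_1 and 104 without E60_2. MEGF11, a receptor of cell spacing, was at 294, 87.6 and 70.9 CPM in the members with PAX2 against 45.5, 21.6 and 26.1 CPM (log2 fold change 2.35 ± 0.27, edgeR adjusted p = 2.03e-05), and lost its call without E50_1 (edgeR adjusted p = 0.165). OSBPL3, an oxysterol binding protein, was at 175, 79.6 and 131 CPM against 56.2, 29.3 and 17.4 CPM (1.86 ± 0.27, edgeR adjusted p = 0.000781), and kept it under all 10 alternatives with the library as a term. NEUROD1, at 172, 47.8 and 21.8 CPM against 34.5, 26.2 and 1.74 CPM, was higher as well (2.09 ± 0.32, edgeR adjusted p = 0.00139), a call lost with DESeq2 and without possible doublets. The members with PAX2 lay above the others in every library for these genes, which the naming by p required. TFAP2B was higher by 1.33 ± 0.27 (edgeR adjusted p = 0.0261), yet in E60_2 it was at 27.3 CPM with PAX2 and 27.8 CPM without. Its call was lost with DESeq2, without E50_1, without possible doublets and with at least 4000 UMIs a cell. PYY (-4.44), EFNA5 (-1.23), ROBO2 (-1.01) and TAC1 (-1.90) were lower. All 4 calls were lost with DESeq2, those of EFNA5, ROBO2 and TAC1 without possible doublets, those of EFNA5 and ROBO2 without E50_1 and that of TAC1 without E60_1. PENK was lower as well, at 161, 55.7 and 32.7 CPM against 545, 406 and 31.3 CPM (-1.82 ± 0.26, edgeR adjusted p = 0.000781), but not in E60_2, and its call was lost with DESeq2 and without possible doublets. GATA3 did not pass (-1.28, edgeR adjusted p = 0.342), although it did without E60_1 (0.0282), without E60_2 (9.53e-05) and with no filter on low counts (0.00787).

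MEGF11 and NEUROD1 were thus higher with PAX2 and lower with SOX14, and PENK was lower in both fits, though not in E60_2 with PAX2. Since the splits use the same cells, they are no independent comparisons.

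**Figure D5:**
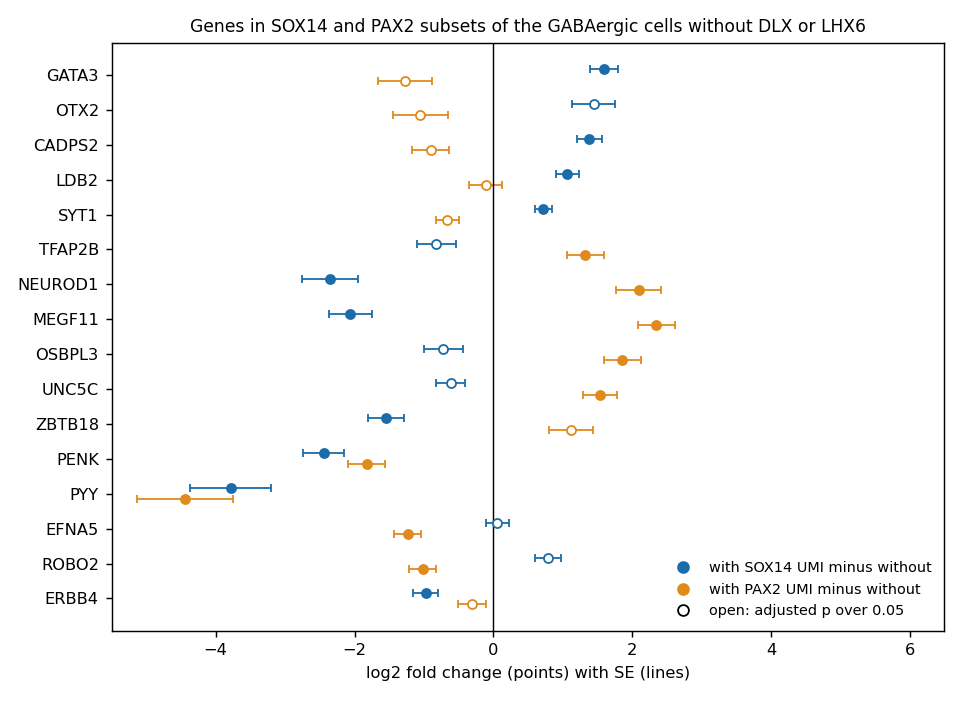
Log2 fold changes (x axis) with their SE for 16 genes (y axis) between the DLX-negative GABAergic cells with and without a SOX14 UMI (blue) and with and without a PAX2 UMI (orange), from fits over 3 libraries, where open symbols have an adjusted p over 0.05. MEGF11 lies at 2.35 in the PAX2 split and at -2.06 in the SOX14 split, and PENK lies below 0 in both.

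In E50_1 the 151 members with GATA2, GATA3, TAL1 or TAL2 had SIX3 in 31.1% against 8.40% of the others, OTX2 in 31.8% against 10.0%, PNOC in 58.9% against 33.2% and SOX14 in 43.0% against 11.6%. PAX2 was in 11.3% against 40.8% and SLC6A5 in 3.31% against 22.0%. The median depth was 7054 UMIs in the members with GATA or TAL and 9028 in the others. The test found 175 of 7936 genes (2.21%), 134 higher (1.69%) and 41 lower (0.517%), and 291 without E50_1. MEGF11 was at 45.2, 4.98 and 16.5 CPM in the members with GATA or TAL against 163, 41.9 and 55.9 CPM (-1.88 ± 0.27, edgeR adjusted p = 0.000104), the only one of the 20 genes named by p to keep its call under every alternative with the library as a term. SST was at 77.1, 204 and 168 CPM against 1033, 425 and 185 CPM (-1.91 ± 0.38, edgeR adjusted p = 0.00375), a call lost without E50_1 (edgeR adjusted p = 0.0782), with DESeq2, without possible doublets and with at least 5 GAD UMIs. Among the higher genes were 3 of 5 tested genes of the vascular list, such as PECAM1 of endothelial cells (1.42 ± 0.22, edgeR adjusted p = 0.00028). PECAM1 turned to -0.78 with at least 5 GAD UMIs and lost its call without globin-rich cells (edgeR adjusted p = 0.438). Without members that had 3 or more UMIs of the vascular list the count was 57, and without those that had 10 or more of the astroglial list it was 9.

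LHX5 alone had enough cells only in E50_1, where 49.6% of the 117 members with LHX5 had LHX1 against 39.4% of the others, 65.8% had SLC32A1 against 52.1%, 25.6% had SOX14 against 22.5% and 31.6% had PAX2 against 28.9%. The median depth was 8565 UMIs with LHX5 and 7764 without. These gaps were smaller than that of GATA3 in the SOX14 split. Members with LHX1 or LHX5 in all 3 libraries were tested instead, and 5 of 8399 genes (0.0595%) passed, of which the 2 higher ones (0.0238%) were LHX1 and LHX5 themselves. The 3 lower ones (0.0357%) were EBF2, SPHKAP and ZBTB26. EBF2 was at 51.0, 4.42 and 0 CPM against 173, 25.6 and 18.1 CPM (-1.85 ± 0.28, edgeR adjusted p = 0.00504). The count was 0 without E50_1, where 239 genes had an unadjusted p under 0.05 by edgeR, 20 without E60_1 and 56 without E60_2. Neither EBF2 nor SPHKAP kept its call with DESeq2.

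Members with at least 10 UMIs of the astroglial list were compared with the others, since the list was high in the E60 libraries. Of 7912 genes, 553 (6.99%) passed, 453 (5.73%) higher and 100 (1.26%) lower, and 263 without E60_1. The list made the split, so its own genes are no finding. PENK was at 19.3, 38.5 and 5.36 CPM in the members with the astroglial list against 509, 625 and 106 CPM (-4.42 ± 0.30, edgeR adjusted p = 3.98e-08). SLC32A1 (-1.21 ± 0.34, edgeR adjusted p = 0.0338), GATA3 (-1.12, edgeR adjusted p = 0.0281) and SST (-1.62, edgeR adjusted p = 0.0034) were lower too. The calls of SLC32A1 and GATA3 were lost without E60_1 (edgeR adjusted p = 0.396 and 0.146) and without E60_2 (0.143 and 0.323), and that of SST with at least 5 GAD UMIs (0.16). By edgeR 7 of 13 tested neuron genes were lower and 0 higher. These 7 calls (STMN2, NEFL, TUBB3, SNAP25, ELAVL4, GAP43 and MAPT) were lost without E60_1 and with at least 5 GAD UMIs, and all but that of NEFL without E60_2. All 5 tested genes of the vascular list were higher, as were TOP2A, CCNB1 and CDK1 of dividing cells (3 of 4 tested), the early response genes EGR1 and FOS (2 of 3 tested) and OLIG1 of oligodendroglia (1 of 1 tested), and their part in the other differences was not tested. SOX14 did not pass (-0.31, edgeR adjusted p = 0.695), nor did LHX1 (0.23, edgeR adjusted p = 0.758). SOX14 had a UMI in 31.6%, 16.4% and 40.0% of the members with the astroglial list, in 22.6%, 8.33% and 54.3% of the other members, and in 0.590%, 0.158% and 1.20% of cells with the astroglial list and no GAD UMI. The median depth of the members was 16529, 6061 and 5943 UMIs with the list and 7596, 5242.5 and 4999 UMIs without it, so in E50_1 the shares of both sets come from very unlike depths. SOX14 was thus found in both sets of members more often than in the GAD-negative glial cells.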

How the data were processed

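The authors mapped reads of 10X Genomics version 2 libraries with Cell Ranger (given as 2.20 in the labels) to Sscrofa11.1 with introns counted, and deposited 1 table of raw UMI counts per library with 22452 genes. Of these, 7482 had no symbol, and 987 of them were named from a RefSeq based table. UMIs were summed per library and cell class and tested with edgeR 4.0.16 in R 4.3.3 (quasi-likelihood, TMM, filterByExpr, class and library as terms, at least 10 cells per class and library, Benjamini-Hochberg over all genes, threshold 0.05). The library term pairs the classes, since both come from the same brains. The comparison across library sets has no such term. Its p-values measure the spread between libraries. With the library term, p-values measure how far the class difference varies between libraries, with a spread partly shared over all genes. The CA8 fit holds only E50_1 and E60_1, so its p-values rest largely on that shared spread. All intervals cover counting error only. Alternatives used DESeq2 1.42.0, Scrublet (scanpy 1.11.5) and the settings given at the end.

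The members and lists were chosen with earlier results of these data known. The comparison with DLX or LHX6 cells of other libraries and the LHX1 or LHX5 split were added after the data were seen, because the planned within-library tests had enough cells in E50_1 alone. The astroglial split was added then too, because the list was high in the E60 libraries. Named genes are the 10 with the smallest p in each direction among those that passed, at least 4-fold apart (1.5-fold where fewer than 10 were) and with the same sign in every library, and the members of the fixed lists. In the comparison across library sets, the same sign meant that the sets did not overlap. For genes named by p, such agreement between libraries is therefore no finding. PAX8, NEFM, HOPX, CLDN5, MKI67, JUN and HSPA1A were not analysed here, and some other genes are not reported here. On simulated counts, 18% of 2-fold and 93% of 4-fold changes were found in the comparison with SLC17A6 neurons, and 40% and 100% in that with CA8 cells. These changes were placed only in genes with enough UMIs in the smallest sum, so the shares do not cover genes at low levels.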

Additional observations from a re-analysis of the deposited data

Results flagged for a closer look

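Cells that meet the same criteria were also found outside E50_1, E60_1 and E60_2, in libraries the comparisons above do not use for this purpose. They numbered 18 in E60_3, 9 in E70_1, 19 in E70_3, 39 among the E70 nuclei and 9 among the adult nuclei, with 3 more in E70_2 and 2 in the adult whole cells. SOX14 had a UMI in 4 of the 18 cells of E60_3 and in 0 of the cells of the other libraries named here. GATA3 had one in 6, 4, 0, 2 and 0 and PAX2 in 9, 9, 9, 9 and 3 of the cells of the first 5 libraries. At least 1 of the selectors was found in 72.2%, 100%, 47.4%, 25.6% and 33.3% of them. These shares rest largely on PAX2, which the DLX or LHX6 cells of E60_3, E70_1, E70_2 and E70_3 held as well. In the microglia-like cells PAX2 was also higher in those libraries than in the libraries of the members. No background share was taken here, so these shares do not set the cells apart from others of their libraries. ERBB4 stood at 1606, 2661, 1542, 9455 and 2762 CPM in the cells of these 5 libraries, against 145 to 252 CPM in the members. Their difference from the members was not tested.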

How the results depend on the processing

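Of 2931 values of 263 named gene results under an alternative, 2200 kept their direction and side of the threshold, 703 lost the call, 22 gained it and 6 turned: ITM2A in the SOX14 split without astroglial cells (-0.40), APOA1 (-0.13), PTPRB (-0.022) and PECAM1 (-0.78) in the GATA split with at least 5 GAD UMIs, and FABP7 (0.49) and SLC1A3 (0.095) in that split without astroglial cells. With no replicate block, that is, without the library term that pairs the classes, the counts fell to 7 for SLC17A6 neurons, 1 for the SOX14 split and 0 by edgeR for the CA8 cells and the LHX, GATA, PAX2 and astroglial splits, where 242, 15, 75, 45 and 716 genes had an unadjusted p under 0.05. In the order CA8, SLC17A6, SOX14, LHX, GATA, PAX2 and astroglial, DESeq2 gave 19, 37, 2, 1, 61, 4 and 283 genes, and no filter on low counts gave 286, 191, 93, 54, 285, 74 and 830. Leaving out 1 library gave 303 to 1649 genes against DLX or LHX6 cells of other libraries, 33 to 702 for SLC17A6, 33 to 63 for SOX14, 0 to 56 for LHX, 170 to 291 for GATA, 13 to 104 for PAX2 and 263 to 506 for the astroglial split. Without possible doublets the counts were 5 for SOX14, 103 for GATA, 4 for PAX2 and 364 for the astroglial split. With at least 5 GAD UMIs they were 841 against DLX or LHX6 cells, 13 for SLC17A6, 20 for LHX, 37 for GATA and 24 for the astroglial split. With at least 4000 UMIs they were 3 for LHX and 9 for PAX2. Chosen after seeing the data, leaving out astroglial cells gave 61 for SOX14, 24 for LHX and 9 for GATA. Leaving out cells over 1% globin gave 41 for GATA, 8 for PAX2 and 289 for the astroglial split. Leaving out cells with vascular UMIs gave 36 for SLC17A6, 55 for SOX14, 25 for LHX, 57 for GATA, 27 for PAX2 and 263 for the astroglial split. The causes were not tested. The members' share of cells with at least 2 GAD UMIs was 8.90%, 3.17% and 4.86% in E50_1, E60_1 and E60_2, with at least 5 it was 5.16%, 0.367% and 0.776%, and thinned to 4000 UMIs it was 2.27% in E60_1. Thinning gave 17.7% and 27.8% for SOX14 in E50_1 and E60_2, 15.2% for LHX5 and 20.4% for PAX2 in E50_1, and 27.4%, 11.7% and 23.3% for GATA or TAL. With at least 5 GAD UMIs, LHX5 was in 34.5% of E50_1, PAX2 in 26.7% of E60_1 and SOX14 in 33.3% of E60_2. Not run for too few cells were the CA8 comparison without a library or with other cell filters, the SOX14 and PAX2 splits with at least 5 GAD UMIs, the PAX2 split without astroglial cells, and the tests of LHX5 alone and of DLX or LHX6 cells of the same library.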
